A study of Rattus norvegicus with 20 samples.

Results

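The genes for the synthesis of cholesterol and fatty acids were followed in the supraoptic nucleus (SON) of the rat, the hypothalamic nucleus whose magnocellular neurones make vasopressin and oxytocin. The members are 30 genes listed by name for their place in these pathways, of 32402 genes in the deposited tables. They stand under 31 Ensembl identifiers, because Elovl6 has 2. A total of 29 members had a mean of at least 10 normalised counts over the libraries of a comparison and were tested. Elovl6, a fatty acid elongase, did not, with means between 0.382 and 1.19 over the libraries of a table for its 2 identifiers, whereas the lowest mean of a tested member in any table was 257, for Hsd17b7. The rats were male Wistar Han in 4 groups of 5, namely adult euhydrated (EH) and adult dehydrated (DH) rats aged 3 months, and aged EH and aged DH rats aged 18 months. EH rats drank freely, and DH rats had their water removed for 2 days according to the sample labels, while the study's methods give a longer period. Each library was made from poly(A) RNA of bilateral SON punches of a single rat, so that nearby hypothalamic tissue, glia, vessels and meninges were sampled together with the magnocellular neurones. In such bulk tissue, fewer cells of a type and less RNA per cell cannot be told apart.

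Cholesterol is made from acetyl-CoA through mevalonate and isoprenoids to squalene, which is cyclised to lanosterol and trimmed to cholesterol in the endoplasmic reticulum. Brain cholesterol is made almost wholly within the brain, because lipoproteins of the blood do not cross the blood-brain barrier, and astrocytes and the oligodendrocytes that build myelin are known as major producers. When sterols run low, the chaperone encoded by Scap carries the SREBP transcription factors, encoded by Srebf1 and Srebf2, from the endoplasmic reticulum to the Golgi, where their active part is released to switch on these genes. When sterols are plentiful, the Insig proteins hold the complex back. SREBP acts together with NF-Y, which binds the box CCAAT, and with the GC-box factor Sp1.

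The promoters of Hmgcs1, Idi1, Msmo1, Cyp51 and Scd are shown because they are genes on which the results turn. Shown are the 250 bases before the transcription start in RefSeq (build GRCr8), printed 5′ to 3′ on the strand of the gene, with each CCAAT box in capitals, as CCAAT or, on the opposite strand, as ATTGG. The windows lie at chr2:53382054-53382303 (plus strand) for Hmgcs1, chr17:66547525-66547774 (minus strand) for Idi1, chr16:29746863-29747112 (plus strand) for Msmo1, chr4:30991443-30991692 (plus strand) for Cyp51 and chr1:253231732-253231981 (minus strand) for Scd.
Hmgcs1: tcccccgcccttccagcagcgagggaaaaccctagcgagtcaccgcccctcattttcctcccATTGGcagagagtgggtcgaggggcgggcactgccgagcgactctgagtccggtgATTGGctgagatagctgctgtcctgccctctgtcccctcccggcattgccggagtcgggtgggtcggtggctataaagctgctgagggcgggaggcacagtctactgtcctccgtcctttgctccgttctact
Idi1: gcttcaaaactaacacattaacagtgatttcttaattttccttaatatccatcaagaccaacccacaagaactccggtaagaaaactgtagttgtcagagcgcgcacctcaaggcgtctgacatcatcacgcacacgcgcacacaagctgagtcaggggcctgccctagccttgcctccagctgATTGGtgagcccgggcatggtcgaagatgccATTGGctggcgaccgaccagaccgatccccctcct
Msmo1: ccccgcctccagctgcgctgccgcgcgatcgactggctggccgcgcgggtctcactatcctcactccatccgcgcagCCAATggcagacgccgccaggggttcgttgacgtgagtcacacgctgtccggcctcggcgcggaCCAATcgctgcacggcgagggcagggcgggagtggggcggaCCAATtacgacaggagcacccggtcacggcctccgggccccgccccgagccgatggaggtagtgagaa
Cyp51: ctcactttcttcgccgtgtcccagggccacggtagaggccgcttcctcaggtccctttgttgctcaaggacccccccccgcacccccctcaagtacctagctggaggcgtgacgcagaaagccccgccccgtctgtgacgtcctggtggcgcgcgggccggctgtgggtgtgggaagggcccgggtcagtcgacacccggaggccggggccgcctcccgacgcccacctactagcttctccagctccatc
Scd: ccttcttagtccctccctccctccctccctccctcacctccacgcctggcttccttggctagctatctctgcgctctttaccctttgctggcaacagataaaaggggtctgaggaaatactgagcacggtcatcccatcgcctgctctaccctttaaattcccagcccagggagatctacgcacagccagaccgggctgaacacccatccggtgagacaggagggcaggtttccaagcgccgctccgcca
The Hmgcs1 window held 2 CCAAT boxes, both on the opposite strand, whose letters begin 188 and 133 bases before the start. Idi1 held 2, beginning 66 and 35 bases before the start, and Msmo1 held 3 on its own strand, at 173, 109 and 68 bases. Cyp51 and Scd held none in these letters. A window that runs from 250 bases before to 50 bases after the start was at hand for 23 of the 30 members. CCAAT was found on either strand in 17 of these 23, or 73.9%, and in 37.5% of all 33469 promoters. The GC box GGGCGG stood in 19 members, or 82.6%, against 33.1% of all promoters, and CACNCCAC, the core letters of a sterol regulatory element, in 4, or 17.4%, against 5.80%. These are matches of letters and not sites of binding. A member counted once if any of its windows matched, with 24 windows for the 23 members. All promoters were counted singly, whether or not their gene was tested here, so the 2 shares differ in unit and in set.

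Values are normalised counts, that is read counts divided by a size factor of the library, in a separate table for each of 3 comparisons. They summed to between 25931931 and 28689164 per library, and the Pearson r of log2 values across genes was between 0.989 and 0.993 for libraries of the same group. Differences are given as log2 fold changes (LFC) of the normalised count plus 1, with the standard error (SE), and were tested with limma over all genes with a mean of at least 10. Genes with a Benjamini-Hochberg adjusted p under 0.05 are called differentially expressed (DEGs). Nothing in the labels says more of the rats of a group than that they are separate samples. The study's methods describe rats housed in groups, with whole cages assigned to EH or DH. Which rats shared a cage is not given, and the tests treat each rat as independent. Where the rats of a group are listed one by one, they stand in the order of their label numbers. The levels of different genes are not compared, because the values are not corrected for transcript length.

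Enzymes from every stretch of the pathway were lower in the aged SON. Of the 29 members, 10 were DEGs with lower and 0 with higher expression in aged EH than in adult EH rats by limma, where 3.30% of all 15369 genes tested were lower DEGs and 2.69% were higher. At an unadjusted p under 0.05, 17 members were lower and 0 were higher, where 20.3% of all genes tested reached it in either direction. The LFC was below 0 for 26 members, and for all 23 that encode enzymes, against 49.9% of all genes tested. The enzyme gene nearest 0 was Fdps, at -0.0086, whose sign changed in some of the alternative fits described below. The median LFC was -0.15 for the members and 0.00033 for all genes. In 9 members, all of them DEGs, every aged EH rat was lower than every adult EH rat, as in 3.43% of all genes. The mean of log2 values over the 29 members was between 10.86 and 10.94 in the adult EH rats and between 10.71 and 10.74 in the aged EH rats, so that these ranges did not overlap either.

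**Figure D1:**
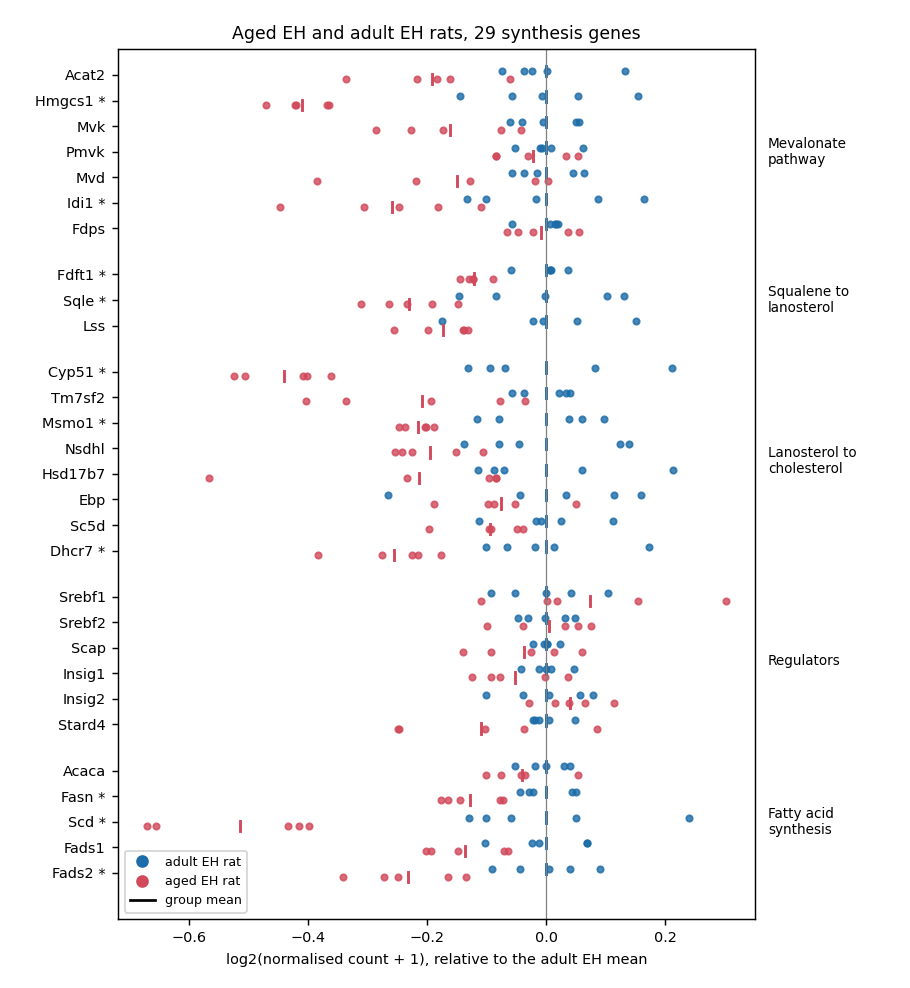
Each point is a rat, placed by its log2(normalised count + 1) relative to the adult EH mean of that gene (blue, adult EH, n = 5; red, aged EH, n = 5), vertical bars are group means, and an asterisk marks DEGs with an adjusted p under 0.05. The means of the enzymes lie to the left of 0 in aged rats, furthest for Scd, Cyp51 and Hmgcs1 and barely for Fdps, Pmvk and Acaca. The regulators scatter around 0, with Stard4 furthest to the left.

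In the mevalonate pathway, Hmgcs1, which encodes the cytosolic synthase that joins acetyl-CoA to acetoacetyl-CoA, had 12489, 12057, 11354, 13029 and 13958 normalised counts in the adult EH rats and 9055, 9736, 9369, 9720 and 9362 in the aged EH rats. The groups did not overlap. Its LFC was -0.41 (SE 0.048, adjusted p = 0.00032), a level that fell by 24.7%. Idi1, which interconverts the isoprenoid building blocks, fell from 1355 ± 119 to 1132 ± 99.5 (SD, n = 5; LFC -0.26, SE 0.069, adjusted p = 0.042). The lowest adult EH rat had 1231 counts of Idi1 and the highest aged EH rat 1251, so that here the groups overlapped slightly. The thiolase Acat2, the kinase Mvk and the decarboxylase Mvd had LFCs of -0.19, -0.16 and -0.15 and were not DEGs (adjusted p = 0.077, 0.118 and 0.247). Pmvk, the second kinase, and Fdps, which makes farnesyl diphosphate, had LFCs of -0.022 (95% interval -0.11 to 0.063) and -0.0086 (-0.077 to 0.060).

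Among the enzymes from squalene to lanosterol, Sqle, the epoxidase that is a slow step of the pathway, had 3064, 2773, 2896, 3361 and 3295 normalised counts in adult EH and 2610, 2686, 2769, 2557 and 2474 in aged EH rats. The highest aged rat stayed just below the lowest adult rat, and the LFC was -0.23 (SE 0.053, adjusted p = 0.021). Fdft1, squalene synthase, fell from 4061 ± 99.8 to 3731 ± 52.6 (SD, n = 5; LFC -0.12, SE 0.029, adjusted p = 0.025), a small change without overlap between the groups. Lss, the cyclase that forms lanosterol, had an LFC of -0.17 and was not a DEG (95% interval -0.30 to -0.050, adjusted p = 0.098).

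From lanosterol to cholesterol, all 8 measured enzymes had an LFC below 0 and 3 were DEGs. Cyp51, lanosterol demethylase, had 6908, 7027, 6729, 7801 and 8536 normalised counts in adult EH rats and 5187, 5733, 5550, 5576 and 5123 in aged EH rats. With an LFC of -0.44 (SE 0.060, adjusted p = 0.00094) it fell by 26.3%, and the groups stood well apart. Msmo1, the sterol methyl oxidase that acts after it, had between 3548 and 4114 counts in adult EH and between 3237 and 3375 in aged EH rats (LFC -0.22, SE 0.041, adjusted p = 0.0088). Dhcr7, the reductase of the last step of one branch, fell from 1070 ± 81.1 to 896 ± 48.6 (SD, n = 5; LFC -0.26, SE 0.057, adjusted p = 0.018). Nsdhl, Tm7sf2, Hsd17b7, Sc5d and Ebp had LFCs between -0.21 and -0.075 and adjusted p between 0.063 and 0.678.

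Of the 5 fatty acid enzymes tested, 3 were lower DEGs in ageing, namely Scd, Fads2 and Fasn. Scd, the stearoyl-CoA desaturase that makes oleate, had 1446, 1518, 1476, 1639 and 1869 normalised counts in adult EH rats and 1186, 1171, 994, 1200 and 1004 in aged EH rats. This was the largest LFC of any member in ageing, at -0.52 (SE 0.076, adjusted p = 0.0017), with no overlap. Scd has a near copy, Scd2, and how their shared reads were divided is not given in the sources used here. Scd2 was not a DEG in ageing, with 113466 ± 6889 counts in adult EH and 107985 ± 5186 in aged EH rats (SD, n = 5). Its LFC was -0.071 (95% interval -0.18 to 0.035, adjusted p = 0.481). Fads2, a desaturase that starts the synthesis of long polyunsaturated fatty acids, fell from 2353 ± 115 to 2004 ± 116 (SD, n = 5; LFC -0.23, SE 0.046, adjusted p = 0.010). Fasn, fatty acid synthase, fell from 10493 ± 321 to 9608 ± 329 (LFC -0.13, SE 0.033, adjusted p = 0.037). Fads1, the desaturase that acts after Fads2, and Acaca, acetyl-CoA carboxylase, were not DEGs, with LFCs of -0.14 (95% interval -0.22 to -0.048, adjusted p = 0.070) and -0.040 (-0.12 to 0.036).

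None of the 6 regulators was a DEG in ageing by limma, and 0 had an unadjusted p under 0.05. Srebf2, the SREBP gene most tied to sterol synthesis, had an LFC of 0.0045 (95% interval -0.075 to 0.084), and Srebf1, more tied to fatty acid synthesis, had 0.073 (-0.067 to 0.214). Scap had -0.037 (-0.12 to 0.045), Insig1 had -0.052 (-0.13 to 0.027) and Insig2 had 0.041 (-0.070 to 0.151). Stard4, a sterol carrier of the cytosol, had -0.11 (-0.26 to 0.038). These are levels of mRNA, and the release of active SREBP was not measured. Of the members with a promoter at hand, CCAAT stood in 3 of the 7 that were DEGs in ageing and in 14 of the 16 that were not.

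Markers of several cell types moved with age as well. Of 16 oligodendrocyte and myelin markers, 6 were DEGs with lower expression in aged EH rats and 0 were higher, with a median LFC of -0.24, and their summed level was between 212667 and 300855 normalised counts in adult EH and between 196011 and 238381 in aged EH rats. The myelin genes Cldn11, Mal and Ugt8 had LFCs of -0.62, -0.68 and -0.78. Of 10 astrocyte markers, 3 were lower (Aqp4, Gja1 and Gjb6), with sums of 191034 to 225017 in adult and 191630 to 225478 in aged EH rats. Of 3 oligodendrocyte precursor markers 2 were lower (sums of 4926 to 5543 and 3834 to 4693), of 7 endothelial markers tested 3 were lower (11108 to 11474 and 9804 to 10510), and of 8 microglial markers 3 were higher (7074 to 8179 and 8371 to 9564). Meningeal markers were lower in 3 of 5 tested (46826 to 95056 and 37620 to 74367), namely Col1a1 (LFC -1.66), Lum (-0.77) and Slc6a20 (-0.44). Most of that sum is Ptgds, with means of 63977 in adult EH and 55194 in aged EH rats, which was not a DEG. The mean of log2 values over the 5 meningeal markers was 11.36 to 11.73 in adult EH and 10.29 to 11.13 in aged EH rats, without overlap. Of all the marker genes, Col1a2 alone was listed at 0 in every library. Of 8 magnocellular markers 2 were higher (222880 to 312595 and 271049 to 374766), and of 4 neuronal markers tested 0 were DEGs and 1 had an unadjusted p under 0.05 (46088 to 50760 and 48337 to 53424). By the mean of log2 values, the ages did not overlap for the precursor, endothelial and microglial markers either. For precursors it was 10.21 to 10.36 in adult EH and 9.88 to 10.03 in aged EH rats. The oligodendrocyte, astrocyte, magnocellular and neuronal markers overlapped by this measure. The part of these shifts in the lower expression of the synthesis genes was not tested.

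**Figure D2:**
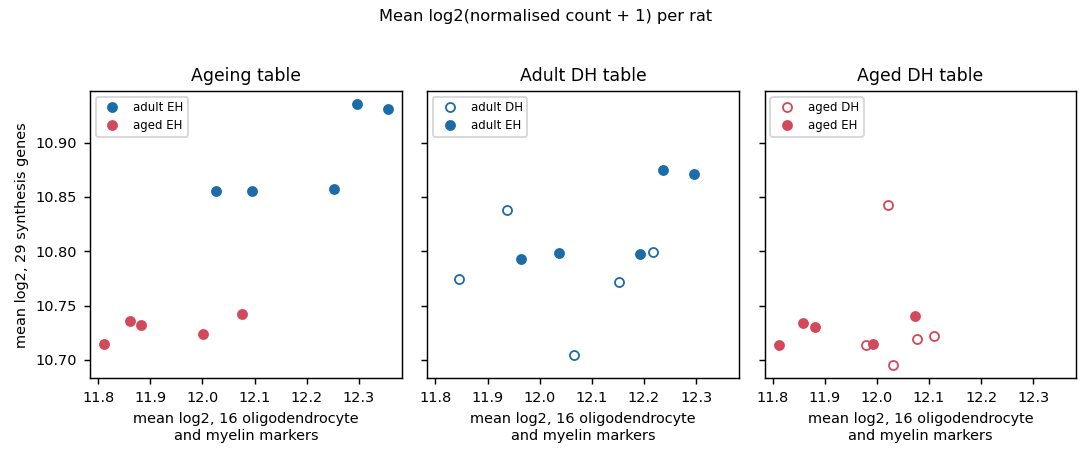
Mean log2(normalised count + 1) over the 29 synthesis genes (vertical axis) against that over the 16 oligodendrocyte and myelin markers (horizontal axis), a point per rat, in the table of each comparison. In the ageing table the synthesis genes separate the ages (10.86 to 10.94 against 10.71 to 10.74), and the myelin markers overlap (12.03 to 12.36 in adult EH, 11.81 to 12.08 in aged EH). The myelin markers spread more widely between rats, and their median LFC was larger in size (-0.24 against -0.15). Some marker lists that are not drawn here separate the ages too. In the aged DH table, DH replicate 1 stands above the other rats at 10.84.

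Other genes of the same metabolism gave a mixed picture in ageing. Of 33 tested genes for further steps of fatty acid synthesis, elongation and activation, 4 were lower DEGs by limma and 0 were higher. In either direction 11 had an unadjusted p under 0.05, where 20.3% of all genes tested did, and the median LFC was -0.027. The lower ones were Acss2, which makes acetyl-CoA from acetate (LFC -0.27), Elovl1, an elongase of very long chains (-0.38), Thrsp, a lipogenic activator (-0.68), and Fa2h, the hydroxylase that makes the hydroxylated lipids of myelin (-0.72). Among 25 genes for sterol sensing, transport and turnover, 0 were lower and 1 was higher, Npc2, which moves cholesterol out of lysosomes (LFC 0.30, SE 0.056, adjusted p = 0.0074), and the median LFC was 0.016.

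In dehydrated adult rats the desaturase genes Scd, Fads1 and Fads2 and the mevalonate pathway genes Hmgcs1 and Mvd were lower, and Pmvk was higher. In adult DH against adult EH rats, 5 of the 29 members were lower DEGs, where 4.99% of 15280 genes tested were lower, and 1 was a higher DEG, where 7.67% were higher. The LFC was below 0 for 18 members, or 62.1%, against 52.2% of all genes, with medians of -0.053 and -0.0073, and the members' median was -0.026, -0.034 and -0.031 without DH replicate 1, DH replicate 5 and EH replicate 6. The 5 lower DEGs did not overlap between the groups, as in 4.08% of all genes. The lower DEGs were 3 desaturases of fatty acids and 2 enzymes of the mevalonate pathway. Of the 11 enzymes from squalene to cholesterol, 0 were DEGs by limma and 0 by edgeR. By limma, 4 of the 11 had an unadjusted p under 0.05, where 26.9% of all genes tested did. DESeq2 called 1 of the 11, Dhcr7.

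Scd had 1388, 1459, 1413, 1572 and 1793 normalised counts in adult EH rats and 1199, 971, 1320, 1125 and 929 in adult DH rats. Its LFC was -0.47 (SE 0.094, adjusted p = 0.0055), the largest of the members in this comparison. Fads1 fell from 5866 ± 290 to 5109 ± 216 (SD, n = 5; LFC -0.20, SE 0.039, adjusted p = 0.0046), and Fads2 from 2257 ± 112 to 1954 ± 116 (LFC -0.21, SE 0.047, adjusted p = 0.010).

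Hmgcs1 had 11985, 11585, 10873, 12498 and 13390 normalised counts in adult EH and 10778, 9646, 10810, 10458 and 9175 in adult DH rats. The highest DH rat, at 10810, was close to the lowest EH rat, at 10873, and the LFC was -0.25 (SE 0.057, adjusted p = 0.013). Mvd fell from 640 ± 23.3 to 568 ± 25.8 (SD, n = 5; LFC -0.17, SE 0.047, adjusted p = 0.029), but lost the call in 6 of 19 alternatives, 5 of which left out a single rat (DH replicate 1, 2 or 5, or EH replicate 1 or 5). Pmvk, the kinase between Mvk and Mvd in the pathway, went the other way, from 1450 ± 41.5 to 1599 ± 31.9 (LFC 0.14, SE 0.032, adjusted p = 0.012), with every DH rat above every EH rat.

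Several enzymes that were lower with age did not pass the test in adult DH. Cyp51 had an LFC of -0.058 (95% interval -0.18 to 0.066), Idi1 0.0046 (-0.14 to 0.150), Msmo1 -0.077 (-0.18 to 0.028) and Fasn -0.053 (-0.12 to 0.013). Sqle had an LFC of 0.12 (0.012 to 0.235, adjusted p = 0.143) and Dhcr7 -0.15 (-0.26 to -0.045, adjusted p = 0.063). Among regulators, Srebf1 and Srebf2 had LFCs of -0.13 (-0.24 to -0.027) and -0.075 (-0.14 to -0.014), with adjusted p of 0.096 and 0.102.

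Of 33 other fatty acid genes tested, 7 were higher and 3 lower DEGs in adult DH. The higher ones were Fads3 (LFC 0.43), the acyl-CoA synthetases Acsl5 (0.38) and Acsl4 (0.17), the elongation enzymes Hsd17b12 (0.32), Elovl2 (0.21) and Hacd3 (0.15), and the fatty acid binding protein gene Fabp5 (0.30). The lower ones were Thrsp (-0.53), Scd2 (-0.21) and Acss2 (-0.15). Of the 25 other sterol genes, 0 were DEGs by limma, and 6, or 24%, had an unadjusted p under 0.05, against 26.9% of all genes tested. Of these 25 genes, edgeR called 1, Soat1, and DESeq2 2, Soat1 and Lrp1. Of the oligodendrocyte markers 2 of 16 were lower (Cnp and Opalin), with sums of 203657 to 288612 in adult EH and 189667 to 246514 in adult DH rats, and of the magnocellular markers 4 of 8 were higher (Avp, Scg2, Pcsk1 and Creb3l1), with sums of 214159 to 299960 and 303864 to 409823. The part of these shifts in the members' values was not tested.

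In aged rats, dehydration left 3 members as DEGs, and each of them was also a DEG in the same direction in adult DH. Lower DEGs were 2 of the 29 members, where 3.25% of 15346 genes were lower, and 1 was higher, where 4.05% were. The LFC was below 0 for 13 members, or 44.8%, against 51.0% of all genes, with medians of 0.019 and -0.0030. The sign of the members' median rested on aged DH replicate 1, whose mean log2 over the members was 10.84, against 10.70 to 10.72 in the other aged DH rats and 10.71 to 10.74 in aged EH rats. Without that rat, 17 members, or 58.6%, had an LFC below 0 and the median was -0.018, while it stayed above 0, between 0.0061 and 0.036, when any other rat was left out. Scd had 1185, 1169, 994, 1199 and 998 normalised counts in aged EH rats and 970, 921, 796, 848 and 849 in aged DH rats, with an LFC of -0.34 (SE 0.069, adjusted p = 0.0092). It was the only lower DEG without overlap, as in 2.93% of all genes. Hmgcs1 had 9041, 9722, 9366, 9711 and 9303 in aged EH and 9109, 7442, 7833, 7724 and 8176 in aged DH rats (LFC -0.23, SE 0.048, adjusted p = 0.0099). The overlap came from DH replicate 1, at 9109 counts, and without that rat the LFC was -0.28 (adjusted p = 0.0015). Pmvk rose from 1486 ± 68.1 to 1732 ± 63.3 (SD, n = 5; LFC 0.22, SE 0.042, adjusted p = 0.0058), without overlap.

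**Figure D3:**
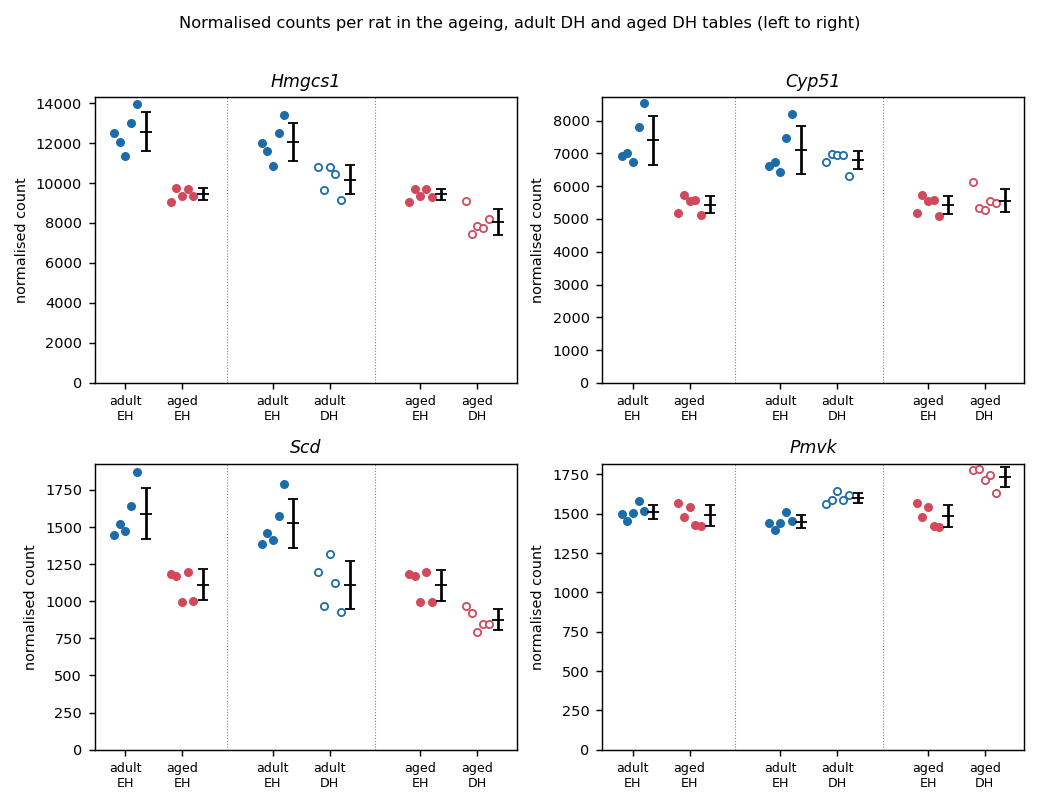
Normalised counts per rat (points), with the group mean and SD beside them (bars, n = 5), for Hmgcs1, Cyp51, Scd and Pmvk. From left to right, each panel gives the table of ageing, of adult DH and of aged DH, which were normalised separately and share the EH rats. Hmgcs1 and Scd are lower in all 3 comparisons, Cyp51 is a DEG in ageing alone, and Pmvk is higher after DH at both ages.

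The remaining members in aged DH did not pass the test. Fdps had an LFC of 0.13 (95% interval 0.046 to 0.207, adjusted p = 0.058), Ebp 0.17 (0.032 to 0.317, adjusted p = 0.136), Insig1 0.13 (0.013 to 0.243, adjusted p = 0.181) and Dhcr7 -0.16 (-0.30 to -0.025, adjusted p = 0.153). Fads1 and Fads2, lower in adult DH, had LFCs of -0.036 (-0.12 to 0.050) and -0.061 (-0.15 to 0.029). Of the 33 other fatty acid genes 6 were higher and 0 lower, namely Fabp5 (0.53), Acsl5 (0.32), Hsd17b12 (0.29), Fads3 (0.24), Elovl5 (0.14) and Hacd3 (0.13). Scd2, lower in adult DH, was not called here (LFC -0.063, 95% interval -0.16 to 0.033, adjusted p = 0.464). Of the 25 sterol genes, Cyp46a1, the neuronal hydroxylase by which cholesterol leaves the brain, was the 1 lower DEG (LFC -0.23, SE 0.058, adjusted p = 0.030). Oligodendrocyte markers were higher in 3 of 16 (Mobp, Mal and Olig1), with sums of 195725 to 238021 in aged EH and 219188 to 257074 in aged DH rats, and of the magnocellular markers 2 of 8 were higher and 1 lower, with sums of 269329 to 374664 and 321265 to 509669. Their part in the members' values was not tested.

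Whether DH acted differently at 3 and at 18 months was tested by subtracting the adult LFC of DH from the aged one, in a fit of all 20 rats. No member was a DEG for this difference by limma, nor was any of the 15326 genes (0%). An unadjusted p under 0.05 was reached by 5 of 29 members and by 9.93% of all genes, and no member was a DEG under any alternative that was tried. The difference was below 0 for 5 members, or 17.2%, against 50.5% of all genes, so that for most members the LFC of DH was higher in aged than in adult rats, with a median of 0.053. The median was 0.035 without aged DH replicate 1 and 0.034 without adult EH replicate 6, with 8 members below 0 in each case. Fads1 had the lowest unadjusted p, with a difference of 0.16 (95% interval 0.045 to 0.281, adjusted p = 0.344), followed by Fdps at 0.12 (0.024 to 0.223, adjusted p = 0.403). For the members that were DEGs at both ages, the differences were 0.13 for Scd (-0.13 to 0.389), 0.016 for Hmgcs1 (-0.15 to 0.181) and 0.079 for Pmvk (-0.025 to 0.183). The 16 oligodendrocyte markers all had a difference above 0, with a median of 0.26, and 0 of them were DEGs, with an unadjusted p under 0.05 for 8.

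**Figure D4:**
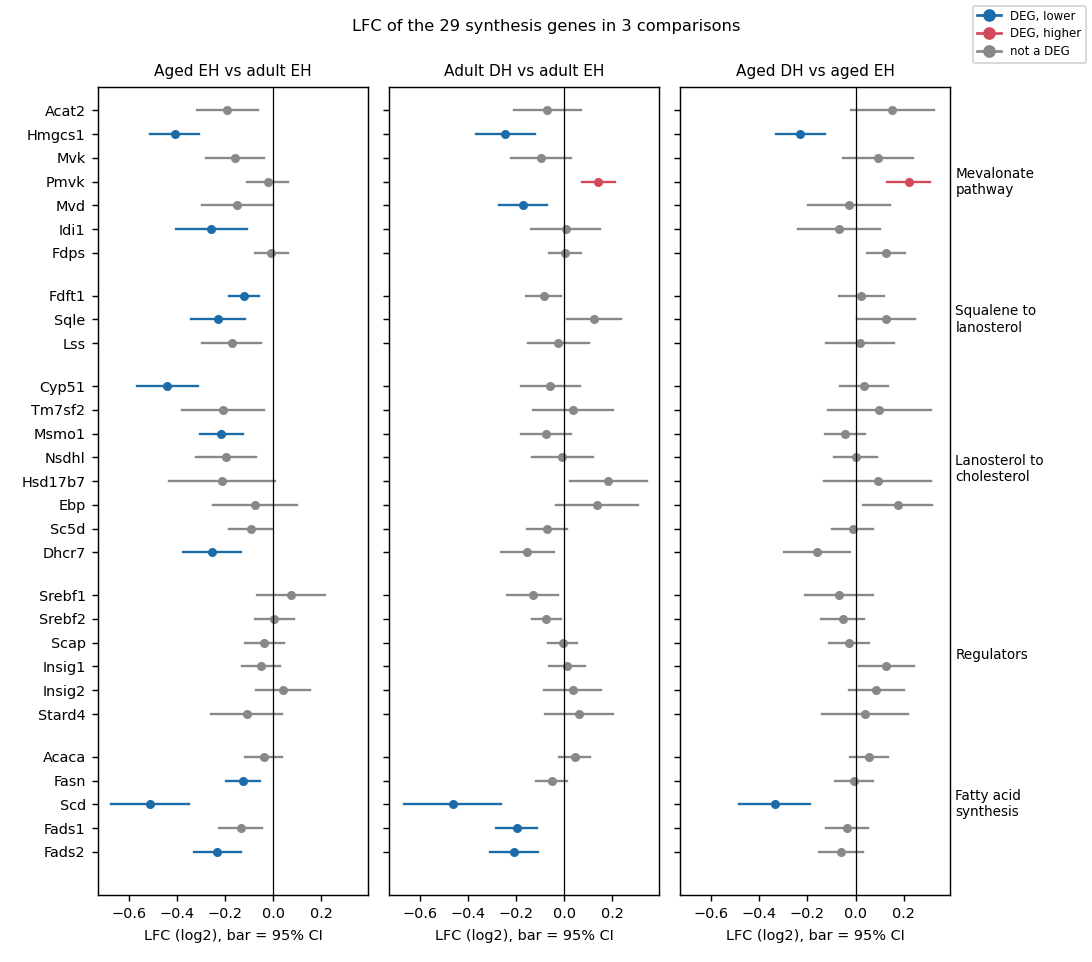
LFC (points) with its 95% confidence interval (lines) of the 29 synthesis genes, grouped by role, for ageing (left), DH in adult rats (middle) and DH in aged rats (right), with 5 rats per group. Blue marks lower DEGs (10, 5 and 2), red higher DEGs (0, 1 and 1) and grey genes that were not DEGs.

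Set side by side, 13 members were DEGs in at least 1 of the 3 comparisons and 16 in none. Ageing shares its adult EH rats with adult DH and its aged EH rats with aged DH, so these comparisons are not independent. Scd had LFCs of -0.52 in ageing, -0.47 in adult DH and -0.34 in aged DH, and Hmgcs1 had -0.41, -0.25 and -0.23. Pmvk had -0.022, 0.14 and 0.22. Cyp51 had -0.44, -0.058 and 0.036, so that it was a DEG in ageing alone, as were Idi1, Fdft1, Sqle, Msmo1 and Fasn, under limma and every alternative run in DH. Dhcr7 was a DEG in ageing and, by limma, not in DH, although DESeq2 called it in adult DH (LFC -0.16, adjusted p = 0.046), as did limma after upper-quartile rescaling and without adult EH replicate 2 (adjusted p = 0.041 and 0.045). Whether the LFC of ageing differed from that of DH was not tested.

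Within the groups, several enzymes rose and fell together from rat to rat. Each rat's log2 value was taken as a deviation from the mean of its group in the DH table of its age, and Pearson's r with Hmgcs1 was computed over the 20 rats. Such deviations share the library, its depth and the make-up of the punch, and the values are a description. Of the 15325 other genes, Idi1 had the highest r with Hmgcs1 (0.866) and Msmo1 the next (0.841), with Cyp51 at rank 4 (0.808). The genes of rank 3 and 5, named for their rank after the values were seen, were Kcng3, a potassium channel subunit (0.809), and Usp15, a deubiquitinase (0.803). For all genes the median r was 0.0038, with the 5th percentile at -0.428 and the 95th at 0.430. Of the other 28 members, 13 lay above the 95th percentile, 9 of them among the 17 other cholesterol enzymes. Next to the top 3 these were Scd (0.713), Fdft1 (0.709), Sqle (0.687), Sc5d (0.668), Fasn (0.596), Insig1 (0.573), Dhcr7 (0.570), Stard4 (0.492), Hsd17b7 (0.491) and Nsdhl (0.460).

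Among the regulators, r with Hmgcs1 was -0.032 for Srebf2, -0.12 for Srebf1 and -0.19 for Scap. Some other enzymes of cholesterol synthesis also had an r near 0, among them Fdps (0.066), Lss (0.049), Pmvk (-0.00053) and Acat2 (-0.075). The 2 rats whose Hmgcs1 deviation was farthest from the median were adult EH replicate 6 and aged DH replicate 1. Without them, over 18 rats, r was 0.852 for Idi1, 0.770 for Msmo1, 0.683 for Cyp51 and 0.626 for Scd, while Dhcr7 fell to 0.264. For Idi1 and Cyp51, r was 0.904 and 0.794 in the 10 adult rats and 0.868 and 0.834 in the 10 aged rats. For Scd it was 0.897 in the adult and 0.374 in the aged rats, and for Lss -0.50 and 0.689.

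**Figure D5:**
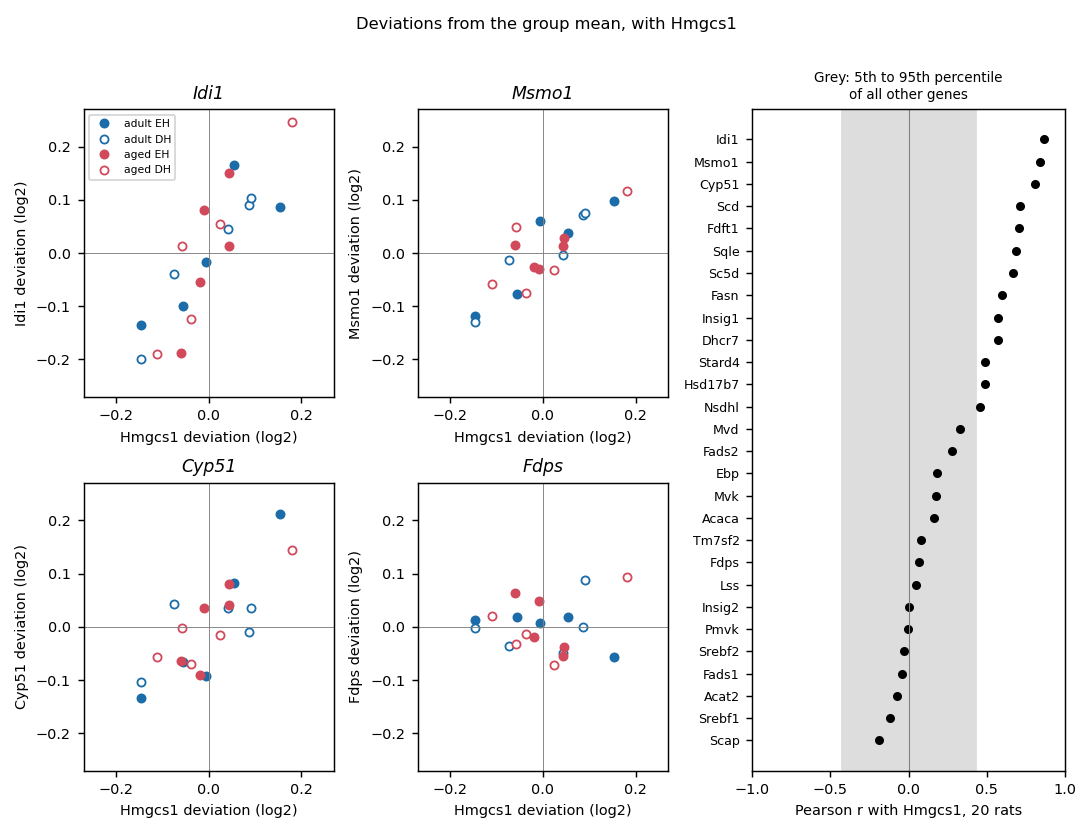
Left, deviations of log2(normalised count + 1) from the group mean for Idi1, Msmo1, Cyp51 and Fdps (vertical) against Hmgcs1 (horizontal), a point per rat in 4 groups. Right, Pearson r with Hmgcs1 over 20 rats for the other 28 members, with the range from the 5th to the 95th percentile of all other genes in grey (-0.428 to 0.430). Idi1, Msmo1 and Cyp51 follow Hmgcs1 closely (0.866, 0.841 and 0.808), and Fdps does not (0.066).

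The number of members called in ageing depended on the moderation of the test and on which rats were kept. Without a trend of the variance on the mean, 5 members were lower DEGs in ageing, and without adult EH replicate 6 there were 6, in place of 10. Leaving out adult EH replicate 5 lost the calls of Idi1, Sqle, Fdft1 and Fasn, as did leaving out replicate 6. Without replicate 5, Fads1 was called. Over all genes, 921 were called, against 516 without the trend, 639 without replicate 6 and 594 without replicate 5. Hmgcs1, Cyp51, Scd, Msmo1 and Fads2 were DEGs in ageing under each of the 17 alternatives run. Idi1 and Fasn lost the call in 9 of these each, Fdft1 in 8, Sqle in 5 and Dhcr7 in 2, with the sign of the LFC kept in all 17.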

How the data were processed

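The data are 3 tables that the authors deposited for 20 SON libraries of poly(A) RNA. The authors mapped reads to Rn6 with STAR and assigned them to genes with featureCounts, whose versions the sources used here do not give. The deposited signal is the read count over the library's DESeq2 size factor, which was set separately in each table. The log2 fold changes, Wald score and p-value columns in the tables are, as deposited, those of the authors' own DESeq2 comparisons, and these and the authors' mean columns were not used. All 30 library columns were used.

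Values were analysed as log2(normalised count + 1). Genes with a mean of at least 10 were fitted with limma (version 3.58.1, R 4.3.3) with trended empirical Bayes moderation, in two-sided tests at a threshold of 0.05 after Benjamini-Hochberg adjustment across every gene tested. The difference between the ages took each rat from the DH table of its age, tables that were normalised separately. For adult DH, 100% of values were whole reads within 0.1 read, with 24268398 to 28491926 reads on genes per library, and edgeR 4.0.16 and DESeq2 1.42.0 were run on these. The scripts were tested on simulated data with changes larger than those of the members, so the recovery of changes of the members' size was not tested.

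The members and lists were chosen with earlier results of these data known. All 30 members were named, with other list genes that passed the threshold, and 6 genes of the lists are not reported here. Adult EH and aged EH rats enter 2 comparisons each. Promoters are RefSeq sequences of GRCr8, matched by symbol, for 23 of 30 members. Positions in Rn6 are not given. Figures were drawn with matplotlib 3.10.9.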

Additional observations from a re-analysis of the deposited data

Results flagged for a closer look

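In 174 sets of 5 values, 1 for each member and group of a table, 3 had a rat whose gap to its nearest neighbour was more than 0.71 of the range, and chance flags about 1 in 20 such sets. Fdft1 in the aged DH table had 4268 normalised counts in aged DH replicate 1, against 3623 to 3771 in the other aged DH rats. Fdps in adult EH replicate 6 had 5829 in the adult DH table, against 6091 to 6146 in the other adult EH rats, and 6076 in the ageing table, against 6348 to 6407. The last 2 values are of the same library.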

How the results depend on the processing

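Of 19 called values of single members, 9 kept the call under every alternative run and 10 lost it under at least 1, and of 335 alternative values 292 kept the call, 43 lost it and 0 changed sign. The count of members called in ageing (10) was 5 without a trend in the moderation and 6 to 11 when each rat was left out, the lowest without adult EH replicate 6. Over all genes, 921 were called in ageing, 516 without the trend and 594 to 906 when each rat was left out. The cause was not tested. The counts were 5 to 7 in adult DH and 3 to 4 in aged DH when each rat was left out, and 0 for the difference between the ages. Over all genes they were 1463 to 1743 in place of 1934 in adult DH, and 678 to 1186 in place of 1119 in aged DH. With the replicate number as a block, the members called were 7 in ageing, 3 in place of 6 in adult DH, 2 in aged DH and 0 for the difference. In each DH comparison only 4 numbers occur in both groups, against 5 in ageing. There the block fit rests on 4 pairs, and the rats without a partner do not enter its LFC. Over all genes, the block gave 824 in place of 921 in ageing and 987 in place of 1934 in adult DH. In aged DH it gave 653 in place of 1119. In adult DH, Hmgcs1, Mvd, Fads2 and Pmvk were not called with the block (adjusted p = 0.054, 0.136, 0.066 and 0.086) and Srebf1 was (0.033), and in aged DH Hmgcs1 was not (0.079). What rats of different groups with the same number share is not given in the labels. The correlations of same-numbered rats were between -0.083 and 0.162, and not every rat was closest to its own number. Replicate 1 was closest to its own number in ageing and in aged DH, as was replicate 2 in adult DH. Such values cannot tell whether the number stands for something shared, so the results with the block are given beside those without it. Of members not called, 4 in ageing, 3 in adult DH, 1 in aged DH and 0 for the difference were called under some alternative. The count tests were run for adult DH alone, where edgeR called 6 members and DESeq2 called 7. Of all 15280 genes, edgeR called 1936 and DESeq2 2243, against 1934 by limma. With 5 rats per group, Fdft1, Fasn and Idi1 lay close to the threshold in ageing by limma (adjusted p = 0.025, 0.037 and 0.042). Their LFCs were -0.12, -0.13 and -0.26. Closeness did not follow the size of the LFC, as Hsd17b7 at -0.21 had an adjusted p of 0.262 by limma.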
